A study of Sus scrofa with 31 samples.

Results

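Solute carriers are membrane proteins that move small molecules and ions across the plasma membrane or the membranes of organelles. The solute carrier genes described here are the 94 that had a symbol beginning with SLC and a digit in the gene name column of the study's supplementary tables, apart from SLC2A5 and SLC11A1, and over 10 CPM (a gene's counts scaled to the library total) in all samples of at least 1 of the 5 groups. They are 94 of the 11633 genes, out of 31907 in the count table, that passed the same expression filter. Symbols were paired for 103 solute carrier genes, and 9 did not pass (SLC16A8, SLC17A6, SLC24A5, SLC26A4, SLC26A10, SLC30A3, SLC4A9, SLC9A5 and SLC9C2). Just outside the filter, SLC9A5 reached at most 9.39 CPM in the lowest sample of a group and SLC9C2 reached 7.73 CPM, and just inside it, SLC2A8 reached 10.7 CPM. Of the symbols, SLC9A3R1 and SLC9A3R2 belong to scaffold proteins that bind sodium proton exchangers and are not transporters.

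The labels give 31 RNA-seq samples and 15 different pig tags. The animals were male cross-bred commercial piglets in the fourth week of life, sedated and anaesthetised for a wider imaging study and killed under anaesthesia, with no further treatment given in the sources used here, and kept in 1 of 2 kinds of pen that the labels do not tell apart. Microglia were sorted as CD11b high, CD45 low or negative cells from 3 brain regions, namely cerebellum, frontal cortex and hippocampus, with 8 samples of each, alveolar macrophages were sorted from lung lavage as F4/80 positive, CD163 low or negative cells (n = 3), and whole hippocampal tissue was used unsorted (n = 4). For 4 pigs there were both microglia and tissue of the hippocampus, and for 2 pigs both macrophages and microglia.

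As background, cells take up amino acids, sugars, vitamins and nucleosides through solute carriers of the plasma membrane, and carriers of the lysosomal membrane return the products of digestion to the cytosol. Others exchange sodium for calcium or protons, move bicarbonate and so set the pH of the cell, or link mitochondria to the cytosol. In brain, carriers on astrocytes and neurons clear or load transmitters, and microglia, the resident macrophages of brain, digest what they engulf in lysosomes.

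Total counts per library lay between 18438494 and 43477403. From here on, CPM values are counts of the tested genes scaled to their library sum and its TMM factor. The sum over 10 microglia marker genes was 4205 to 8383 CPM in the 24 microglia libraries, 245 to 460 CPM in macrophages and 247 to 355 CPM in tissue. Markers of other cells were present at different levels in the groups. Lymphocyte markers summed to 880 to 1550 CPM in the alveolar macrophage libraries and to 59.1 to 187 CPM in microglia, and 8 of these 9 markers were called higher in macrophages. The 8 markers of alveolar or border macrophages summed to 817 to 1386 CPM in the macrophage libraries and to 109 to 261 CPM in microglia. In the macrophage libraries of pigs 12821 and 12829 this sum, 817 and 847 CPM, was under the lymphocyte sum, 1311 and 1550 CPM. MARCO, FABP4 and MSR1, of these 8 markers, did not pass the expression filter. Neuron markers summed to 3022 to 3830 CPM in tissue and to 2.86 to 194 CPM in microglia. In 4 microglia libraries they exceeded 100 CPM, namely those of pigs 12583 and 12902 from the cerebellum and of pigs 12599 and 12891 from the frontal cortex, and their oligodendrocyte markers summed to 560 to 2407 CPM. What these RNAs contributed to single solute carrier values was not tested, and main counts are therefore also given without these 4 libraries.

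Genes of the set were both higher and lower in microglia in each comparison. A gene was called against alveolar macrophages when the mean of the 3 microglia groups differed over 3-fold with an adjusted p under 0.01, and against tissue when hippocampal microglia differed over 4-fold with an adjusted p under 0.01. Against macrophages, 36 genes (38.3%) were called higher in microglia and 23 (24.5%) lower, where 12.2% and 10.1% of all tested genes were. Against tissue, 22 genes (23.4%) were called higher and 38 (40.4%) lower, where 11.7% and 22.1% of all tested genes were. Many of these 38 passed the expression filter only through tissue, where they are high. The median log2 fold change was 1.31 against macrophages and -0.49 against tissue, beside 0.06 and -0.08 over all tested genes. In whole tissue, fewer cells of a type and less RNA per cell cannot be told apart. Both comparisons share the hippocampal microglia samples and are not independent of each other. Without the 4 libraries named above, 36 genes were called higher and 24 lower than in macrophages. The counts against tissue did not move, but none of these 4 libraries is in that comparison, so this does not test it.

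These shares follow in part from where the symbols came from, since most supplementary tables list genes that differed in these same comparisons. Of the 55 genes whose symbol also stands in a table not made from the macrophage comparison, 15 (27.3%) were higher and 7 (12.7%) lower than in macrophages. Of the 83 with a symbol from a table not made from the tissue comparison, 11 (13.3%) were higher and 38 (45.8%) lower than in tissue. Both sets include genes whose symbol comes only from the study's co-expression network of the microglia libraries, among them many of the 38. That network kept genes that vary together across these libraries, so these shares are not free of selection either. A further 93 solute carriers passed the expression filter and had a symbol only in an Ensembl table. Of them 1 (1.08%) was higher and 2 (2.15%) were lower than in macrophages, and 3 (3.23%) were higher and 17 (18.3%) lower than in tissue. Over the 187 solute carriers of both sources together, 37 (19.8%) were higher and 25 (13.4%) lower than in macrophages, and 25 (13.4%) were higher and 55 (29.4%) lower than in tissue. The percentages for the 94 genes therefore describe this set of names and not the solute carrier family. The same holds for the counts by substrate class below, to be read beside the shares of all tested genes given above.

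**Figure D1:**
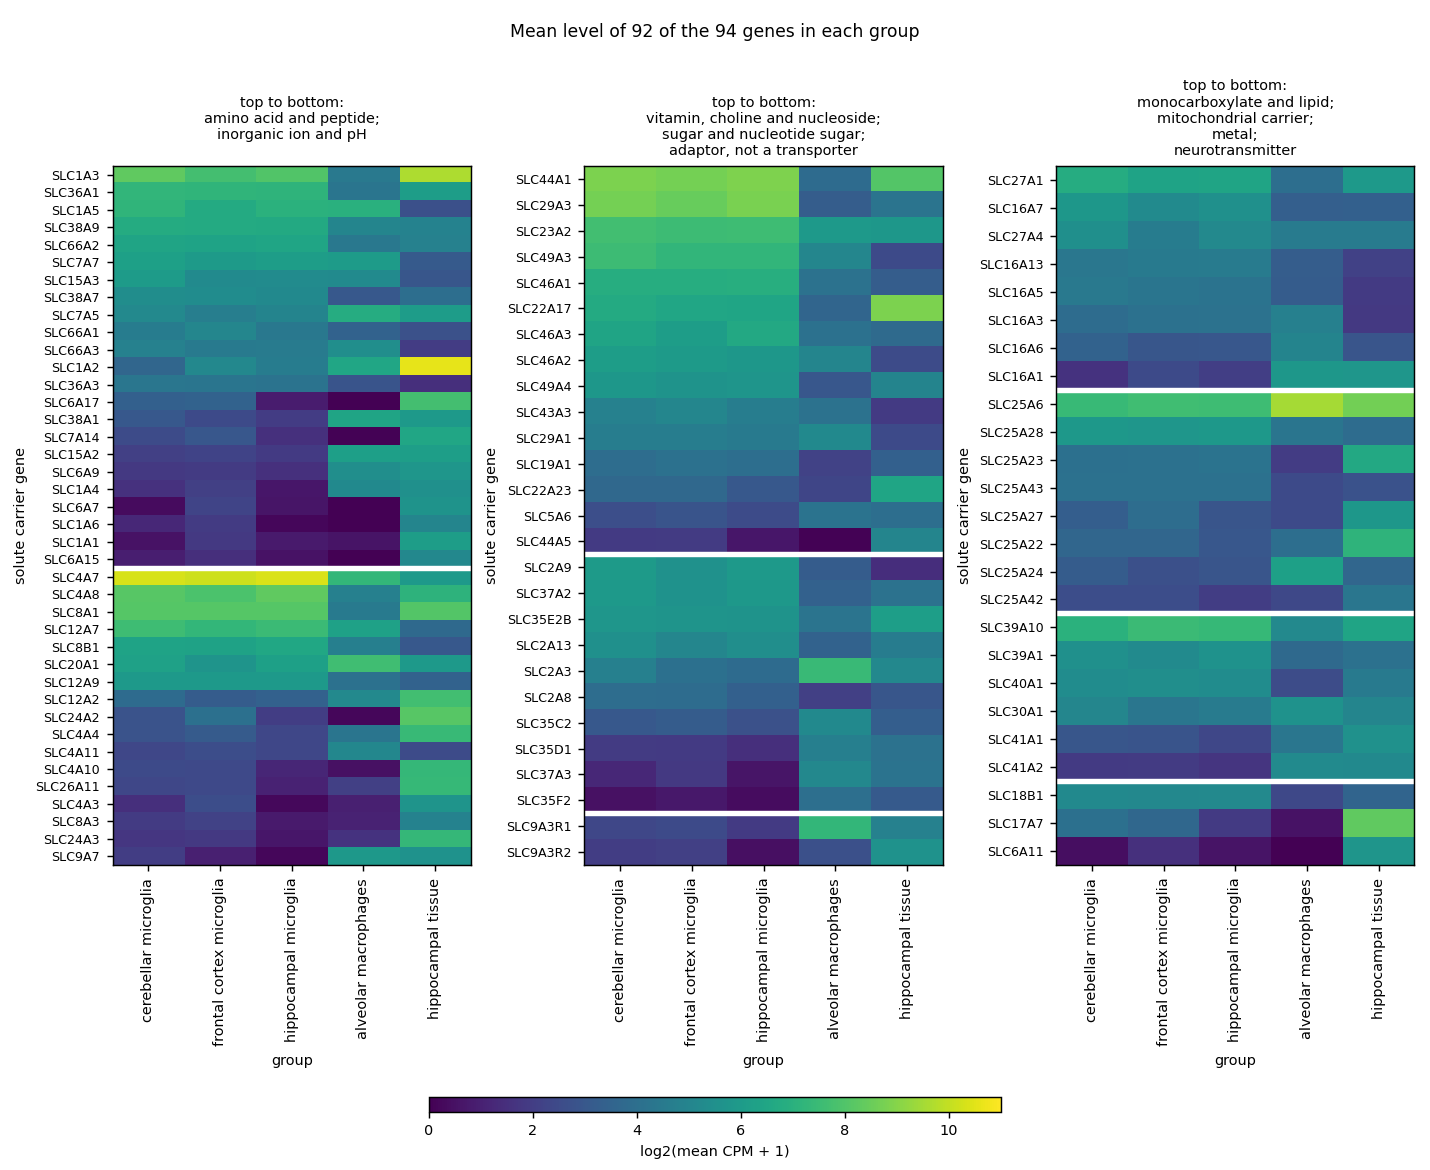
Mean level of 92 of the 94 genes in the 5 groups, as log2(mean CPM + 1) on a colour scale, with genes grouped by substrate class and ordered by their microglia mean. The brightest cells are SLC1A2 in hippocampal tissue (1543 CPM) and SLC4A7 in the 3 microglia groups (1158 to 1317 CPM).

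**Figure D2:**
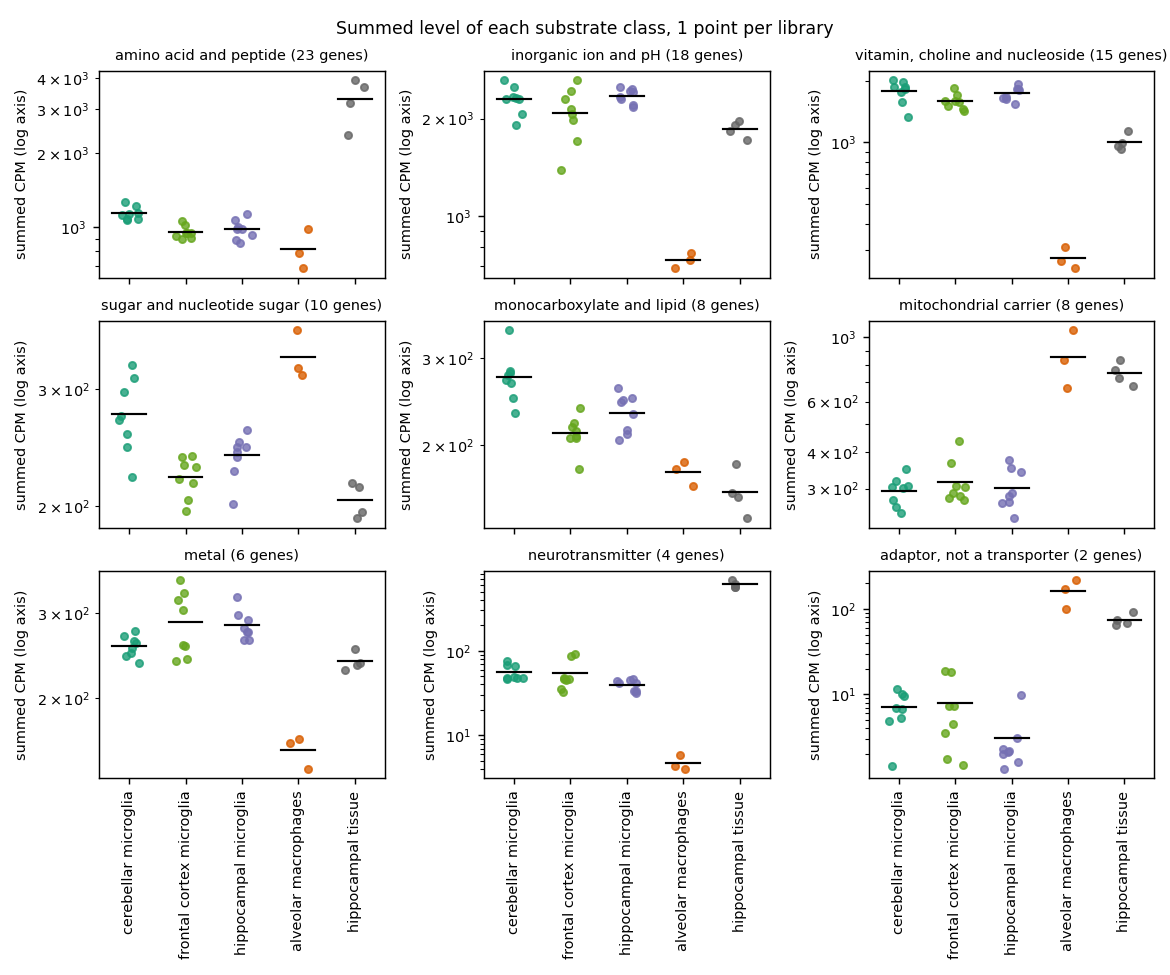
Summed CPM of each substrate class (log axis), 1 point per library, with bars at the group mean. The vitamin, choline and nucleoside class lies at 1332 to 2015 CPM in the microglia libraries and at 244 to 309 CPM in the macrophage libraries.

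Among carriers of vitamins, choline and nucleosides, more were called higher than lower in microglia in both comparisons. Of 15 genes, 9 were higher and 1 lower than in macrophages, and 7 were higher and 3 lower than in tissue. Among them SLC19A1, SLC22A17, SLC23A2, SLC44A1, SLC49A4 and SLC5A6 have a symbol only from tables made from the macrophage comparison. For SLC29A1, SLC43A3 and SLC46A2 the symbol comes only from a table made from the tissue comparison. The summed level of the 15 genes was 1698 ± 181 CPM (SD, n = 24) in microglia, 272 ± 33.2 CPM (SD, n = 3) in macrophages and 1003 ± 90.2 CPM (SD, n = 4) in tissue. No microglia library overlapped the other 2 groups in this sum.

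SLC29A3, which encodes the lysosomal nucleoside transporter ENT3 (ENSSSCG00000010277, chromosome 14, 74222988 to 74267527 in Sscrofa11.1), had the largest fitted fold change of them against macrophages. It had 8.06, 7.77 and 9.60 CPM in the macrophage libraries and 20.9, 16.3, 14.2 and 18.7 CPM in the tissue libraries, against a lowest value of 214, a median of 400 and a highest value of 621 CPM in microglia. Every microglia library was thus above every macrophage and tissue library. The log2 fold change was 5.55 (SE 0.33, adjusted p = 1.61e-14) against macrophages and 4.63 (SE 0.28, adjusted p = 1.15e-14) against tissue. Per kilobase of exon it was the highest gene of its class in microglia, at 147 CPM per kb.

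SLC44A1, the choline transporter CTL1 (ENSSSCG00000005425, chromosome 1, 246548461 to 246760527), separated microglia from macrophages but much less from tissue. It had 11.8, 14.4 and 14.5 CPM in macrophages, between 366 and 552 CPM (median 439) in microglia and 243, 374, 221 and 225 CPM in tissue. Its log2 fold change was 5.05 (SE 0.17, adjusted p = 1.46e-19) against macrophages, and 0.83 (SE 0.12, adjusted p = 5.94e-07) against tissue, under the 4-fold threshold. Its coefficient of variation over the 24 microglia libraries, 10.6%, was the lowest of the 94 genes. SLC44A5, a related choline transporter, had a mean of 2.02 CPM in microglia and 31.4 CPM in tissue.

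SLC49A3, of a family that includes haem transporters (ENSSSCG00000026084, chromosome 8, 120088 to 128420), had 28.5, 32.0 and 35.6 CPM in macrophages and 4.56, 4.68, 4.60 and 4.21 CPM in tissue. In microglia it lay between 101 and 229 CPM (median 164), above every library of the other groups. Log2 fold changes were 2.33 (SE 0.20, adjusted p = 2.27e-11) and 5.05 (SE 0.21, adjusted p = 3.4e-18). In macrophages it was the highest gene of the class per kilobase, at 12.3 CPM per kb. Its lysosomal relative SLC49A4 was 7.36-fold higher in microglia than in macrophages and had 51.7 and 30.1 CPM in hippocampal microglia and tissue.

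Among the folate carriers, SLC46A1, the proton-coupled folate transporter, had 115 CPM in microglia, 16.6 CPM in macrophages and 8.44 CPM in tissue and was called in both comparisons. SLC19A1, the reduced folate carrier, had 15.0, 3.54 and 9.28 CPM and was called against macrophages. SLC46A3, a lysosomal relative of SLC46A1, was called in both comparisons (84.9, 16.2 and 12.9 CPM), and SLC46A2 against tissue (62.8, 31.4 and 4.70 CPM). Among 6 tested genes of folate use, none was called against macrophages, and against tissue the folate receptor gene FOLR1 and MTHFD2, a mitochondrial enzyme of folate metabolism, were called higher and SHMT1, a serine-converting enzyme, lower. FOLR1 had 437 CPM in microglia, 156 CPM in macrophages and 15.7 CPM in tissue.

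The ascorbate transporter SLC23A2 was 3.33-fold higher in microglia (195 CPM) than in macrophages (58.3 CPM). The multivitamin transporter SLC5A6 was lower, at 5.39 against 17.0 CPM, the log2 fold change being -1.67 (SE 0.34, adjusted p = 0.000115), and -1.77 (SE 0.61, adjusted p = 0.0284) when pig was added as a replicate block. It was also not called without the macrophage library of pig 12821. SLC29A1, the plasma membrane nucleoside transporter ENT1, and SLC43A3, a purine nucleobase transporter, were called only against tissue, 4.81-fold and 8.96-fold higher in hippocampal microglia. Tissue was high in SLC22A17, a receptor for lipocalin 2 (ENSSSCG00000002025, chromosome 7, 75734724 to 75741115), with 397, 466, 471 and 484 CPM. It lay between 60.1 and 151 CPM in microglia and at 12.3, 13.6 and 7.39 CPM in macrophages, so that all 3 kinds of sample were apart. Its log2 fold change was 3.08 (SE 0.26, adjusted p = 3.06e-11) against macrophages and -2.40 (SE 0.19, adjusted p = 6.88e-12) against tissue. SLC22A23, an organic ion transporter relative, was also lower in microglia than in tissue (7.19 against 87.1 CPM).

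Among 18 carriers of inorganic ions and pH, 6 were higher and 4 lower in microglia than in macrophages, and 4 were higher and 9 lower than in tissue. SLC4A7, the sodium bicarbonate cotransporter NBCn1 (ENSSSCG00000011218, chromosome 13, 13933552 to 14043108), had the highest mean in microglia of the 94 genes in CPM. It had 147, 141 and 177 CPM in macrophages and 56.8, 62.5, 66.8 and 53.8 CPM in tissue, against 480 to 1640 CPM (median 1289) in microglia. The groups did not overlap, and the log2 fold change was 3.01 (SE 0.24, adjusted p = 1.05e-11) against macrophages and 4.46 (SE 0.24, adjusted p = 8.64e-16) against tissue. Per kilobase it was the highest of its class in microglia, at 126 CPM per kb. A second bicarbonate carrier, the sodium-driven exchanger SLC4A8, was 10.5-fold higher than in macrophages (279 against 26.4 CPM). SLC4A4 and SLC4A11, of the same family, were lower than in macrophages, at 5.99 against 18.5 CPM and 4.38 against 33.1 CPM. The call of SLC4A4 (adjusted p = 0.00912) was lost in 23 of the 31 fits that each left out 1 library.

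Calcium and chloride carriers differed among themselves. SLC8A1, the plasma membrane sodium calcium exchanger NCX1 (ENSSSCG00000036418, chromosome 3, 99823503 to 100257306), had 17.95, 21.6 and 24.7 CPM in macrophages, 167 to 384 CPM (median 272) in microglia and 253, 227, 294 and 277 CPM in tissue. It was far higher in microglia than in macrophages (log2 fold change 3.67, SE 0.21, adjusted p = 4.63e-15), and no difference from tissue was found (0.05, SE 0.15, adjusted p = 0.768). SLC8B1, its mitochondrial relative NCLX, was called higher in both comparisons (85.1 CPM in microglia, 26.1 in macrophages, 7.17 in tissue), while SLC8A3 was called lower than in tissue. SLC12A7, the potassium chloride cotransporter KCC4 (ENSSSCG00000034302, chromosome 16, 79356868 to 79396652), had 11.9, 17.0, 9.80 and 11.6 CPM in tissue and 135 to 224 CPM (median 185) in hippocampal microglia. It was called against tissue (log2 fold change 3.84, SE 0.20, adjusted p = 2.65e-16), and against macrophages (74.2, 83.3 and 78.2 CPM) the difference of 1.14 (SE 0.18, adjusted p = 2.38e-06) was under 3-fold. SLC12A9 was called higher in both comparisons, and the chloride importer SLC12A2 was lower than in tissue.

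SLC9A7, a sodium proton exchanger of the Golgi (ENSSSCG00000012266, chromosome X, 41233308 to 41399032), was low in microglia. It had 60.6, 50.1 and 61.8 CPM in macrophages and 49.8, 37.9, 52.0 and 50.8 CPM in tissue, and a median of 0.52 CPM (0.00 to 9.80) in microglia. No microglia library reached the lowest macrophage or tissue library. Log2 fold changes were -6.23 (SE 0.73, adjusted p = 2.59e-08) against macrophages and -8.24 (SE 1.18, adjusted p = 5.14e-07) against tissue. SLC20A1, the phosphate transporter PiT1, had 160, 212 and 218 CPM in macrophages and was there the highest of its class per kilobase (57.3 CPM per kb). Its log2 fold change of -1.57 (SE 0.12, adjusted p = 4.44e-12) was just under 3-fold, and it passed the threshold in 4 of 31 fits without 1 library and under 4 other settings.

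Tissue held the remaining ion carriers. SLC24A3, a potassium-dependent sodium calcium exchanger (ENSSSCG00000007100, chromosome 17, 27270232 to 27780535), had 139, 174, 158 and 171 CPM in tissue and at most 2.81 CPM in hippocampal microglia (log2 fold change -8.16, SE 1.26, adjusted p = 1.74e-06). SLC4A3, the anion exchanger AE3, had 43.3, 45.0, 56.0 and 56.6 CPM against at most 0.372 CPM (-8.12, SE 1.33, adjusted p = 4.06e-06). Neither was called against macrophages, where they had 0.787, 2.85 and 2.49 CPM and 2.42, 0.00 and 0.503 CPM. SLC26A11, a lysosomal anion transporter relative and the highest of the class per kilobase in tissue (64.6 CPM per kb), had 104, 206, 192 and 164 CPM there and at most 3.07 CPM in hippocampal microglia (-7.24, SE 0.79, adjusted p = 4.87e-09). The neuronal bicarbonate transporter SLC4A10 and the calcium exchanger SLC24A2 were likewise lower in hippocampal microglia than in tissue, at 1.26 against 159 CPM and 2.98 against 283 CPM. SLC24A2 was called higher in microglia than in macrophages, with overlapping libraries, but not without the macrophage library of pig 12821 or of pig 12984. Of 6 carbonic anhydrase genes, which interconvert carbon dioxide and bicarbonate, 2 passed the filter: CA13 was called higher in microglia than in macrophages (17.0 against 1.495 CPM) and CA2 lower than in tissue.

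Of 23 carriers of amino acids and peptides, 6 were higher and 6 lower in microglia than in macrophages, and 5 were higher and 11 lower than in tissue. The class as a whole was highest in tissue, at 3302 ± 696 CPM (SD, n = 4), against 982 ± 88.8 CPM (SD, n = 8) in hippocampal microglia. Much of the tissue sum was SLC1A2, the astrocytic glutamate transporter GLT-1, with a mean of 1543 CPM. It was called lower in microglia than in macrophages too, at 23.0 against 89.1 CPM. SLC1A3, the other astrocytic glutamate transporter, GLAST (ENSSSCG00000016841, chromosome 16, 21873691 to 21965315), was found in microglia as well. It had 20.5, 15.6 and 25.6 CPM in macrophages, 137 to 466 CPM (median 249) in microglia and 753, 620, 902 and 963 CPM in tissue, with no overlap between the 3 kinds of sample. Its log2 fold change was 3.64 (SE 0.32, adjusted p = 6.49e-11) against macrophages and -1.67 (SE 0.23, adjusted p = 2e-07) against tissue, under 4-fold. Per kilobase it was highest in the class in tissue (138 CPM per kb) and, with SLC1A5 close by (44.1 CPM per kb), in microglia (44.2 CPM per kb). Astrocyte markers summed to at most 69.8 CPM in any microglia library and to 2665 CPM or more in tissue.

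Of the carriers known from the lysosomal membrane, for which no list was fixed or tested, some were called higher in microglia than in macrophages and others were not. SLC38A9, the arginine sensor of mTORC1 (105 against 30.9 CPM), SLC38A7, which exports glutamine (39.3 against 7.05 CPM), and SLC36A1, a proton-coupled amino acid transporter (147 against 18.5 CPM), were called higher than in macrophages, as was the PQ-loop protein SLC66A2 (84.5 against 20.1 CPM). SLC66A1, the exporter of cationic amino acids, had 25.1 against 10.1 CPM, a 2.44-fold difference under the threshold. SLC15A3, an endolysosomal transporter of peptides and histidine (ENSSSCG00000013114, chromosome 2, 10799927 to 10814363), was not called against macrophages (31.6, 30.96 and 49.7 CPM, log2 fold change 0.28, SE 0.18, adjusted p = 0.179). Against tissue, with 6.88, 7.12, 6.74 and 6.15 CPM, it was called higher at 2.51 (SE 0.20, adjusted p = 7.05e-12). SLC7A14 and SLC26A11, also known from lysosomes, were not called against macrophages and were lower than in tissue. Of 12 tested genes of amino acid sensing at the lysosome (RAG GTPases, LAMTOR proteins and their transcription factors), 11 were called in neither direction against macrophages and 11 in neither direction against tissue. MITF was the 1 gene of the list called between regions. The exceptions in the other comparisons were CASTOR1, an arginine sensor of the cytosol, at 3.44 against 15.3 CPM in macrophages, and RRAGD, with 39.0 CPM in tissue, both lower in microglia.

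At the plasma membrane, the glutamine exchanger SLC1A5, also named ASCT2 (ENSSSCG00000003105, chromosome 6, 52647432 to 52661464), did not differ detectably between microglia and macrophages, where it was the highest of its class per kilobase (43.04 CPM per kb). It had 151, 127 and 93.4 CPM in alveolar macrophages and 79.2 to 175 CPM (median 129) in microglia, a difference of 0.02 on the log2 scale (SE 0.16, adjusted p = 0.916), and 4.62, 5.40, 5.86 and 6.12 CPM in tissue. Against tissue the log2 fold change was 4.54 (SE 0.21, adjusted p = 2.26e-17). SLC7A7, which exchanges cationic amino acids (68.2 and 65.2 CPM in microglia and macrophages, 7.61 CPM in tissue), the PQ-loop protein SLC66A3 and SLC36A3 were called against tissue only.

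Several amino acid carriers of macrophages and tissue were low in microglia, and the part of the lymphocyte marker RNA of the macrophage libraries in these values was not tested. The peptide transporter SLC15A2 (ENSSSCG00000030305, chromosome 13, 138595942 to 138634473) had 157, 25.4 and 39.8 CPM in macrophages, 73.2, 53.7, 77.7 and 81.4 CPM in tissue and 0.66 to 10.5 CPM (median 2.56) in microglia. Its macrophage libraries were uneven, with that of pig 12821 at the top, and all of them lay above all microglia libraries (log2 fold change -4.56, SE 0.42, adjusted p = 1.76e-10, and -4.77, SE 0.57, adjusted p = 2.5e-08, against tissue). SLC1A4, the neutral amino acid exchanger ASCT1 (ENSSSCG00000028282, chromosome 3, 76938102 to 76970519), had 54.5, 25.9 and 28.0 CPM in macrophages, 37.8, 40.5, 46.5 and 54.5 CPM in tissue and a median of 0.94 CPM (0.00 to 10.3) in microglia. Log2 fold changes were -4.54 (SE 0.64, adjusted p = 5.38e-07) and -6.28 (SE 0.93, adjusted p = 8.29e-07). The glutamine transporter SLC38A1 and the glycine transporter SLC6A9 were called lower in both comparisons too. SLC7A5, the large neutral amino acid transporter LAT1, was 3.69-fold lower than in macrophages (30.4 against 111 CPM), and without the macrophage library of pig 12821 it was no longer called. Of 5 tested genes of glutamate and glutamine metabolism, ASNS, which makes asparagine, was lower in microglia in both comparisons (3.83 CPM, 28.6 in macrophages, 31.1 in tissue), and GLUD1, GOT1 and GOT2 were lower than in tissue.

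The last group of the class was expressed in tissue and nearly absent from macrophages. SLC6A17, a synaptic vesicle transporter of neutral amino acids (ENSSSCG00000006811, chromosome 4, 109919153 to 109974235), had no counts in any macrophage library, 173, 190, 242 and 222 CPM in tissue, and a median of 1.70 CPM with a range of 0.42 to 44.4 CPM in microglia. Against a floor of 3 counts per library, which covers counting error only, it was at least 87.5-fold higher in microglia than in macrophages, and hippocampal microglia were 259-fold lower than tissue (log2 fold change -8.02, SE 1.04, adjusted p = 1.59e-07). The call against macrophages (adjusted p = 0.000527) was lost with pig as a replicate block (adjusted p = 0.0185 in edgeR). The 4 libraries with over 100 CPM of neuron markers held the 4 highest microglia values of SLC6A17, from 18.3 to 44.4 CPM. Without them the microglia mean fell from 6.73 to 2.55 CPM, the bound was at least 33.2-fold, the fitted log2 fold change moved from 9.94 to 8.82, and the call remained. SLC1A6, the glutamate transporter EAAT4 (ENSSSCG00000013833, chromosome 2, 62601763 to 62623597), had 27.8, 35.8, 29.8 and 29.4 CPM in tissue and at most 0.599 CPM in hippocampal microglia (-7.72, SE 1.71, adjusted p = 0.000229). SLC1A1, SLC6A7, SLC6A15 and SLC7A14 were lower in microglia than in tissue in the same way, with tissue means of 34.4 to 91.2 CPM and hippocampal microglia means of 0.456 to 1.90 CPM.

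Among 4 carriers of neurotransmitters and polyamines, 3 were called higher than in macrophages and 3 lower than in tissue. SLC18B1, a vesicular polyamine transporter (ENSSSCG00000004178, chromosome 1, 30923716 to 30956898), had 4.89, 3.95 and 4.00 CPM in macrophages, 20.0 to 44.8 CPM (median 35.7) in microglia and 12.4, 8.05, 9.07 and 12.7 CPM in tissue. It was above both other groups in every microglia library and was 8.19-fold higher than in macrophages (log2 fold change 3.03, SE 0.23, adjusted p = 2.14e-12). SLC17A7, the vesicular glutamate transporter VGLUT1 of excitatory neurons (ENSSSCG00000003170, chromosome 6, 54511121 to 54521616), had 321, 281, 318 and 343 CPM in tissue, 1.10 to 38.3 CPM (median 3.91) in microglia and 0.955, 0.350 and 0.0437 CPM in macrophages. Hippocampal microglia were 117-fold lower than tissue (-6.87, SE 0.84, adjusted p = 3.51e-08). SLC6A11, the GABA transporter GAT3, had 53.1 CPM in tissue and 0.515 CPM in hippocampal microglia.

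The call of SLC17A7 against macrophages rested on the fit. In edgeR's fit that takes pig as a block, adjusted p was 0.161 for SLC17A7, and SLC24A2 was lost as well (adjusted p = 0.143). Leaving out the macrophage library of pig 12829 gave SLC17A7 an adjusted p of 0.0166, and leaving out that of pig 12984 gave 0.0196. When the 4 microglia libraries with over 100 CPM of neuron markers were left out, the log2 fold change of SLC17A7 against macrophages moved from 4.16 to 3.41, and the call remained.

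**Figure D3:**
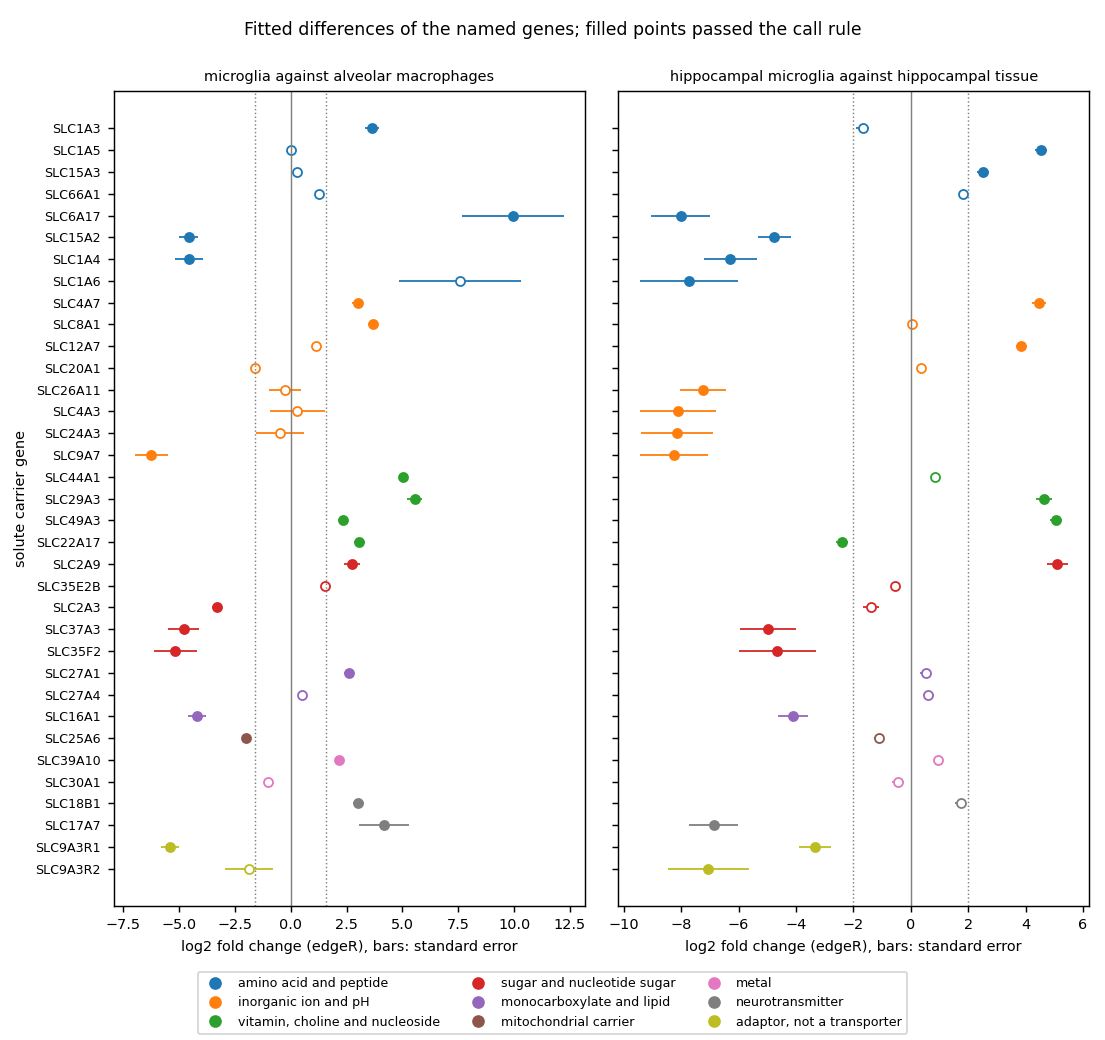
Log2 fold changes with standard errors for the 35 genes given in full, at left for microglia against alveolar macrophages and at right for hippocampal microglia against hippocampal tissue. Filled points passed the call rule, dotted lines mark 3-fold and 4-fold, and SLC6A17 and SLC17A7 are among those on opposite sides in the 2 panels. The fitted values of SLC6A17 and SLC1A6 against macrophages, which had no counts for them, depend on the prior count.

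Of 10 carriers of sugars and nucleotide sugars, 4 were higher and 5 lower in microglia than in alveolar macrophages, and 1 was higher and 3 lower than in tissue. SLC2A9, the urate transporter GLUT9 (ENSSSCG00000031700, chromosome 8, 6211143 to 6367530), had 6.83, 5.46 and 12.6 CPM in macrophages, 2.55, 1.97, 0.441 and 1.88 CPM in tissue and 36.7 to 95.4 CPM (median 52.9) in microglia. It did not overlap between microglia and either group, and its log2 fold change of 5.11 (SE 0.37, adjusted p = 6.08e-13) against tissue was the largest increase of the 94 genes. Against macrophages it was 2.75 (SE 0.35, adjusted p = 7.87e-08). SLC2A3, the glucose transporter GLUT3 (ENSSSCG00000022925, chromosome 5, 62963635 to 63041955), went the other way. It had 200, 170 and 155 CPM in macrophages, 6.51 to 36.3 CPM (median 16.0) in microglia and 31.4, 30.8, 40.5 and 35.6 CPM in tissue. Its fitted difference was -3.31 (SE 0.22, adjusted p = 2.13e-13) against macrophages and of -1.39 (SE 0.28, adjusted p = 5.88e-05) against tissue. Per kilobase, SLC2A9 led the class in microglia (26.8 CPM per kb) and SLC2A3 in macrophages (37.1 CPM per kb).

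The inositol transporter SLC2A13, the intracellular glucose transporter SLC2A8 and SLC37A2, a sugar phosphate exchanger, were called higher than in macrophages, 3.91-fold, 3.75-fold and 5.66-fold. With pig as a replicate block SLC2A13 remained under the p threshold, but its log2 fold change of 1.40 (SE 0.21) was under 3-fold. SLC37A3, of the same family as SLC37A2 (ENSSSCG00000032266, chromosome 18, 9383770 to 9442787), had 29.3, 34.2 and 37.6 CPM in macrophages, 16.7, 13.9, 19.7 and 19.2 CPM in tissue and 0.00 to 4.97 CPM (median 1.28) in microglia. SLC35F2, assigned to the nucleotide sugar transporter family (ENSSSCG00000015001, chromosome 9, 36243059 to 36341361), had 18.7, 14.1 and 12.4 CPM in macrophages, 8.14, 7.07, 6.90 and 8.45 CPM in tissue and 0.00 to 1.75 CPM (median 0.28) in microglia. Both were thus low in every microglia library, with log2 fold changes against macrophages of -4.79 (SE 0.69, adjusted p = 8.37e-07) and -5.16 (SE 0.97, adjusted p = 4.01e-05), and against tissue of -4.97 (SE 0.97, adjusted p = 4.27e-05) and -4.65 (SE 1.34, adjusted p = 0.00268). In the block fit neither was under 0.01 against macrophages (adjusted p = 0.0391 for SLC37A3 and 0.0476 for SLC35F2), nor was SLC35F2 against tissue (adjusted p = 0.0212).

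SLC35D1, which carries UDP-glucuronic acid, was lower in microglia in both comparisons, and the Golgi protein SLC35C2 was lower than in macrophages (7.05 against 36.4 CPM). SLC35E2B, the highest of the class per kilobase in tissue (8.63 CPM per kb), had 67.3, 68.5, 72.5 and 74.9 CPM there, 38.8 to 72.8 CPM (median 50.1) in microglia and 20.1, 18.6 and 14.3 CPM in macrophages. Its 2.89-fold difference from macrophages (log2 fold change 1.53, SE 0.15, adjusted p = 3.29e-10) was just under the threshold, which it passed in 3 of the 31 fits without 1 library.

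Among 8 carriers of monocarboxylates and lipids, 2 were higher and 2 lower in microglia than in macrophages, and 4 were higher and 1 lower than in tissue. The lactate transporter SLC16A1, also named MCT1 (ENSSSCG00000006771, chromosome 4, 107615986 to 107639708), had 81.2, 48.2 and 38.8 CPM in macrophages, 54.6, 68.1, 49.0 and 44.9 CPM in tissue and 0.16 to 7.54 CPM (median 2.71) in microglia. It was low in every microglia library, 18.3-fold below macrophages (log2 fold change -4.19, SE 0.39, adjusted p = 2.26e-10) and 17.1-fold below tissue (-4.10, SE 0.52, adjusted p = 6.07e-08). It led the class per kilobase both in macrophages (16.2 CPM per kb) and in tissue (15.7 CPM per kb). Its relative SLC16A7, the high-affinity transporter MCT2, was higher in microglia in both comparisons, at 46.3 CPM against 8.93 in macrophages and 9.41 in tissue. SLC16A3, the lactate transporter MCT4, had 15.6, 26.7 and 2.53 CPM in microglia, macrophages and tissue and was called against tissue, as were SLC16A5 and SLC16A13.

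Of 10 tested genes of glycolysis and lactate, HK2 (hexokinase, 313 CPM in microglia, 52.1 in macrophages, 18.1 in tissue) and PDK4 were called higher than in macrophages, and HK3, LDHA and EMB lower. LDHA, a lactate dehydrogenase subunit, had 31.4 CPM in microglia and 379 CPM in macrophages. EMB, a chaperone of monocarboxylate transporters, had 0.543 CPM in microglia, 75.5 CPM in macrophages and 9.47 CPM in tissue. Against tissue HK2 was higher and PDK4 and EMB lower.

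SLC27A1, a fatty acid transport protein and the highest of the class per kilobase in microglia (17.6 CPM per kb), had 17.2, 11.13 and 16.4 CPM in macrophages, 52.3 to 137 CPM (median 91.7) in microglia and 56.0, 70.0, 42.9 and 66.2 CPM in tissue. It was 6.15-fold higher than in macrophages (log2 fold change 2.62, SE 0.23, adjusted p = 8.17e-11) and differed from tissue by 0.53 (SE 0.19, adjusted p = 0.0139), with overlapping libraries. SLC27A4 was called in neither comparison. SLC16A6 was 3.90-fold lower than in macrophages, where it had a mean of 29.9 ± 16.1 CPM (SD, n = 3). With the block its log2 fold change was -1.497 (SE 0.38), under 3-fold, and it was not called without the macrophage library of pig 12984.

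Of 8 mitochondrial carriers, 3 were higher and 2 lower than in macrophages, and 1 was higher and 4 lower than in tissue. SLC25A6, the adenine nucleotide translocator ANT3 (ENSSSCG00000033673, on an unplaced sequence in RefSeq), led the class per kilobase in all 3 kinds of sample. It had 720, 920 and 551 CPM in macrophages, 420, 383, 401 and 427 CPM in tissue and 126 to 255 CPM (median 175) in microglia, with no overlap. The log2 fold change was -1.98 (SE 0.14, adjusted p = 4.87e-13) against macrophages and -1.11 (SE 0.16, adjusted p = 4.73e-07) against tissue, the latter under 4-fold. SLC25A24, which exchanges ATP-magnesium for phosphate, was lower than in macrophages (6.77 against 74.7 CPM), and its relative SLC25A23 was higher (16.5 against 2.88 CPM). SLC25A28, the iron carrier mitoferrin-2, was higher in microglia than in both groups (56.3 CPM against 18.2 in macrophages and 14.0 in tissue), and SLC25A43 higher than in macrophages. These 2 calls against macrophages fell under 3-fold with the block, at log2 fold changes of 1.41 (SE 0.19) and 1.51 (SE 0.36). SLC25A28 was also near the 4-fold limit against tissue, at 2.04 on the log2 scale (SE 0.14), and was not called without the tissue library of pig 12821 or the hippocampal microglia library of pig 12847. SLC25A22, SLC25A23, SLC25A27 and SLC25A42 were lower in microglia than in tissue.

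Of 6 metal carriers, 3 were higher and 2 lower than in macrophages, and 2 were lower than in tissue. The iron exporter ferroportin, SLC40A1, was 8.16-fold higher in microglia (40.5 CPM) than in macrophages (4.96 CPM) and 1.82-fold higher than in tissue, under the threshold. Of 11 tested genes of iron handling, TFRC, FTH1 and STEAP3, which take up, store and reduce iron, were lower in microglia than in macrophages and the ferroxidase gene CP was higher. FTH1 had 477 CPM in microglia and 1868 CPM in macrophages, and TFRC 55.9 and 217 CPM. Against tissue HMOX1, which degrades haem, and BACH1, its repressor, were higher (30.3 against 2.00 CPM and 111 against 20.5 CPM for microglia of all regions and tissue).

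The zinc importer SLC39A10 (ENSSSCG00000031954, chromosome 15, 99584830 to 99724621), the highest of the class per kilobase in microglia (21.9 CPM per kb), had 30.8, 33.2 and 40.9 CPM in macrophages, 114 to 245 CPM (median 153) in microglia and 91.9, 79.0, 92.2 and 79.7 CPM in tissue. It was 4.50-fold higher than in macrophages (log2 fold change 2.17, SE 0.15, adjusted p = 4.77e-13). SLC39A1, another zinc importer, was also called, at 43.5 against 12.5 CPM. The zinc exporter SLC30A1 (ENSSSCG00000039472, chromosome 9, 131633586 to 131636934), the highest of the class per kilobase in macrophages (28.4 CPM per kb) and tissue (18.6 CPM per kb), had 36.5, 45.6 and 61.3 CPM in macrophages, 8.44 to 38.1 CPM (median 24.8) in microglia and 29.6, 31.9, 29.7 and 34.1 CPM in tissue. Its log2 fold change of -0.996 (SE 0.18, adjusted p = 2.76e-05) against macrophages was under 3-fold. The magnesium transporters SLC41A1 and SLC41A2 were lower in microglia in both comparisons, and SLC41A2 lost its call against macrophages in the block fit (adjusted p = 0.0316).

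Of the 2 scaffold proteins, SLC9A3R1, or NHERF1 (ENSSSCG00000017232, chromosome 12, 6466138 to 6483539), had 162, 210 and 97.3 CPM in macrophages, 0.595 to 9.87 CPM (median 2.95) in microglia and 22.8, 35.7, 23.3 and 27.6 CPM in tissue. It was lower in microglia than in every other library (log2 fold change -5.40, SE 0.41, adjusted p = 4.44e-12, and -3.33, SE 0.56, adjusted p = 5.69e-06). SLC9A3R2, or NHERF2 (ENSSSCG00000008038, chromosome 3, 39942366 to 39952824), had 42.3, 54.9, 45.2 and 47.0 CPM in tissue and at most 1.60 CPM in hippocampal microglia (-7.05, SE 1.40, adjusted p = 5.55e-05). Its macrophage libraries, at 9.02, 4.33 and 3.24 CPM, overlapped those of microglia.

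The genes lower than in tissue were also at low levels in microglia, and their relative spread between microglia libraries was wide. The low level follows in part from how they were chosen, over 4-fold under tissue in hippocampal microglia. Many of them, such as SLC1A6 and SLC24A3, passed the expression filter only through tissue. The mean level in microglia had a median of 3.19 CPM (0.438 to 93.7) in the 38 genes lower than in tissue, 58.2 CPM (15.6 to 1249) in the 22 higher than in tissue and 40.2 CPM (4.38 to 449) in the other 34. The coefficient of variation over the 24 libraries had a median of 121.5%, 21.8% and 24.5% in these 3 sets. It was not compared at matched levels, and counting error alone is larger relative to a low level. Many of the 38 genes, and most of the 24 summed next, have a symbol only from the study's co-expression network. That network was built from these same microglia libraries and kept genes that vary together across them. The spread and shared rise of such genes were thus in part selected. Summed over the 24 genes that were lower than in tissue but not lower than in macrophages, the level was 107 to 289 CPM (median 152) in 20 microglia libraries and 310 to 717 CPM in the 4 with over 100 CPM of neuron markers. In tissue the sum was 2781 to 3171 CPM, and in macrophages 89.3 to 94.4 CPM. The frontal cortex library of pig 12599, with 194 CPM of neuron and 2407 CPM of oligodendrocyte markers, was the highest microglia library in this sum. The part of other brain cells in these values was not tested.

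**Figure D4:**
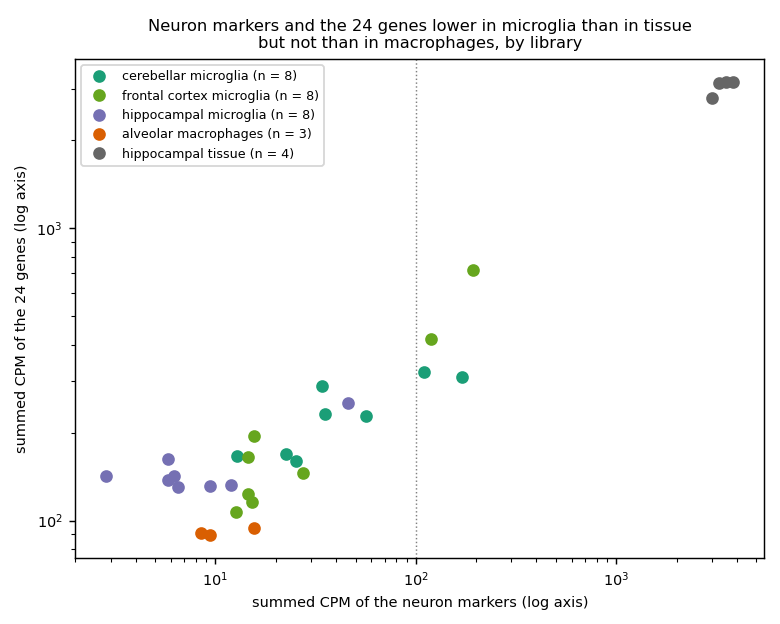
Summed CPM of the neuron markers (log axis) against the summed CPM of the 24 genes lower in microglia than in tissue but not lower than in macrophages (log axis), 1 point per library, coloured by group. The 4 microglia libraries to the right of the dotted line at 100 CPM lie at 310 to 717 CPM, between the other microglia libraries and the 4 tissue libraries. Most of the 24 genes have a symbol only from a co-expression network of the microglia libraries, so their common rise was in part selected.

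Few of the carriers differed between the microglia of the 3 regions. In the F test over regions, at adjusted p under 0.01 whatever the fold, 4 of the 94 genes (4.26%) were called, where 2.03% of all tested genes were. They were SLC15A3, SLC66A1, SLC20A1 and SLC27A4. The symbols of the latter 3 come only from a table made from the regional comparison, and of the 90 carriers with a symbol from another table, 1 (SLC15A3) was called. In pairs of regions, 4 genes were higher and 1 lower in cerebellar than in frontal cortex microglia, where 0.894% and 0.971% of all genes were. The 4 include SLC30A1, whose symbol also comes only from the regional table. Of the 90 carriers with a symbol from another table, 1 (1.11%) was higher and 1 (1.11%) lower. SLC15A3 was higher and none was called lower by edgeR in cerebellar than in hippocampal microglia (0.438% and 0.163% of all genes), where 2 were lower at an unadjusted p under 0.05 and DESeq2 and limma-voom also called 0. In frontal cortex against hippocampal microglia, 1 gene was higher and 1 lower (0.189% and 0.129%). Of the 90 carriers with a symbol from another table, 0 were called in either direction there.

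SLC15A3, the endolysosomal peptide and histidine transporter, was highest in the cerebellum. It had 45.9 to 92.4 CPM (median 58.8) in cerebellar microglia, 30.2 to 53.5 CPM (median 36.8) in frontal cortex and 30.7 to 47.3 CPM (median 37.2) in hippocampal microglia. The ranges overlapped, but within pigs the cerebellar value was higher in 6 of 6 pigs with frontal cortex and in 4 of 4 pigs with hippocampal microglia. The F test gave an adjusted p of 0.00079, and the log2 fold change was 0.78 (SE 0.15, adjusted p = 0.00142) against frontal cortex and 0.77 (SE 0.15, adjusted p = 0.00342) against hippocampus. The hippocampal call was lost without the hippocampal library of pig 12817 (adjusted p = 0.0116) or pig 12872 (adjusted p = 0.0104) and in the edgeR block fit. That fit called 0 carriers in this pair, with 18 at an unadjusted p under 0.05. It called 0 of all 11633 tested genes there, so its 0 is no result about carriers. The limma-voom block fit called 2 there, and 0.567% of all genes.

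SLC27A4, a fatty acid transport protein (ENSSSCG00000005648, chromosome 1, 268773792 to 268788208), had 27.8 to 61.7 CPM (median 44.5) in cerebellar, 18.2 to 32.7 CPM (median 22.5) in frontal cortex and 27.6 to 46.3 CPM (median 35.1) in hippocampal microglia. Cerebellar exceeded frontal cortex microglia by 0.90 on the log2 scale (SE 0.16, adjusted p = 0.00067), in 6 of 6 pigs. Its F test (adjusted p = 0.00203) did not pass without the frontal cortex library of pig 12707 (0.0112), 12847 (0.0101) or 12902 (0.01). SLC20A1, the phosphate transporter (ENSSSCG00000032288, chromosome 3, 43844716 to 43860547), was lowest in frontal cortex, at 36.5 to 64.3 CPM (median 51.9), beside 63.5 to 96.1 CPM (median 76.0) in cerebellum and 54.5 to 99.1 CPM (median 74.7) in hippocampus. The log2 fold change of cerebellar against frontal cortex microglia was 0.62 (SE 0.11, adjusted p = 0.00142), in 6 of 6 pigs, and that of frontal cortex against hippocampal microglia was -0.58 (SE 0.11, adjusted p = 0.00847). The latter call was lost in 20 of the 31 fits without 1 library, and the F test (adjusted p = 0.00163) without the frontal cortex library of pig 12720 (0.0103).

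SLC66A1, the lysosomal exporter of cationic amino acids (ENSSSCG00000003492, chromosome 6, 77761861 to 77778570), was instead highest in frontal cortex. It had 27.5 to 36.0 CPM (median 31.1) there, above every hippocampal library (16.9 to 24.3 CPM, median 20.0) and overlapping cerebellum (19.0 to 29.2 CPM, median 22.1). Frontal cortex exceeded hippocampal microglia by 0.66 (SE 0.11, adjusted p = 0.00172), in 3 of 3 pigs. Its F test (adjusted p = 0.00106) did not pass with pig as a replicate block (adjusted p = 0.0339), which called SLC30A1 (0.00847), and that edgeR fit called 0 carriers between frontal cortex and hippocampus (10 at an unadjusted p under 0.05, and 3 called by the limma-voom block fit). The zinc carriers SLC30A1 and SLC39A10 passed only between cerebellum and frontal cortex, in opposite directions. The exporter SLC30A1 was higher in the cerebellum (log2 fold change 0.76, SE 0.16, adjusted p = 0.0052), in 6 of 6 pigs, and the importer SLC39A10 lower (-0.47, SE 0.10, adjusted p = 0.00599), in 5 of 6 pigs. In the edgeR block fit the call of SLC39A10 was lost (adjusted p = 0.0334), and that of SLC30A1 was kept (adjusted p = 0.0028). Their F tests stood at adjusted p = 0.0103 and 0.0116, and the pair calls were lost in 7 and 5 of the 31 fits without 1 library.

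Without the frontal cortex library of pig 12599, which had the most neuron marker RNA, 8 carriers passed the F test, and without the hippocampal library of pig 12781, 7 did. Without all 4 libraries with over 100 CPM of neuron markers, 6 passed, the 4 above with SLC39A10 and SLC6A17. Of all tested genes, that fit called 1.92%, against 2.03% in the reported fit. For the fits that gave 8 and 7 carriers, no share of all genes is given. Whether these changes in count are particular to carriers was not tested.

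**Figure D5:**
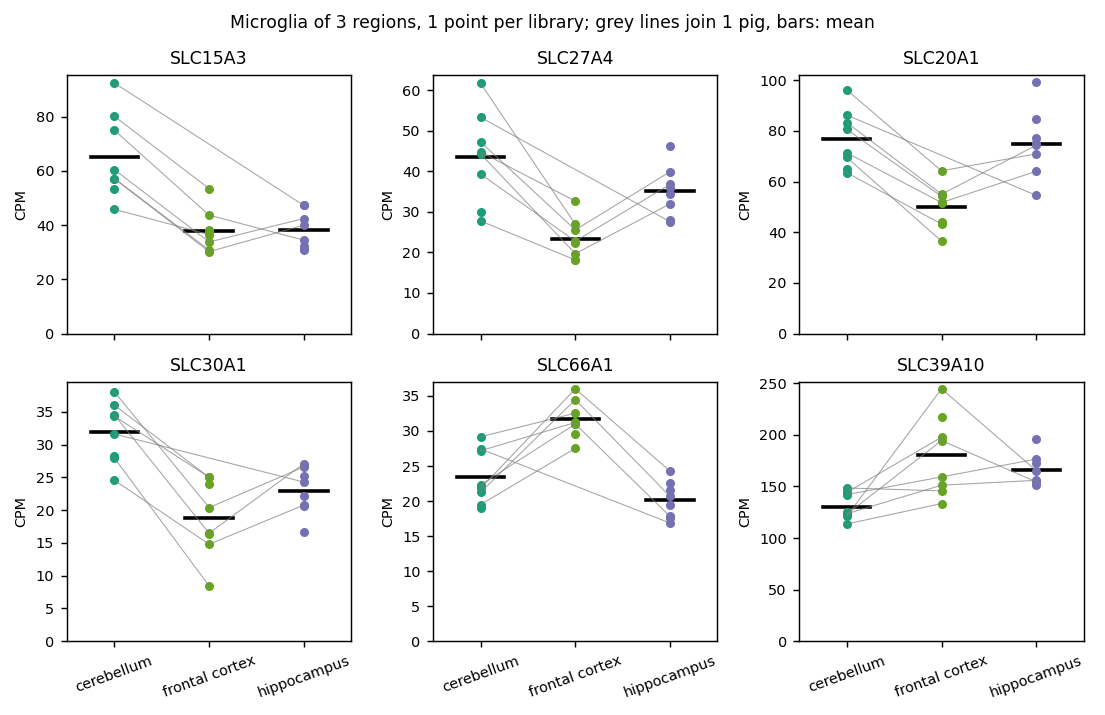
CPM of the 6 carriers that passed in the F test over regions or in a pair of regions, 1 point per microglia library, with bars at the mean of 8 libraries and grey lines joining regions of 1 pig. SLC15A3, SLC27A4, SLC20A1 and SLC30A1 are higher in cerebellar than in frontal cortex microglia in each of 6 pigs, and SLC66A1 and SLC39A10 show the opposite in 6 and 5 of 6 pigs.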

How the data were processed

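Gene-level read counts of 31 total RNA-seq libraries were used. The labels hold 15 different pig tags, 1 fewer than the pigs named in the study's methods, and the pig block uses the tags. Per the study's methods and the submitters' processing notes, the authors aligned stranded paired reads to Sscrofa11.1 with HISAT2 and deposited StringTie read counts per gene, not normalized. Groups and pigs were taken from the labels. Counts (18438494 to 43477403 per library, where 3 counts are 0.0656 to 0.15 of the printed CPM) were kept where every sample of 1 group or more exceeded 10 CPM, leaving 11633 genes, scaled by TMM and fitted in 1 model of 5 groups with the robust quasi-likelihood test of edgeR 4.0.16 in R 4.3.3, adjusted by Benjamini-Hochberg over all genes. The filter used CPM of the library totals. Printed levels, sums and fitted fold changes use TMM-scaled counts of the tested genes. Standard errors were the log2 fold change divided by the root of F. Separate samples of 1 group came from different pigs. Same-numbered samples came from 1 pig, and their deviations from group means correlated at a mean of 0.0791 over 25 pairs (-0.374 to 0.433). The within-pig correlation estimated by limma was 0.205. Microglia of over 1 region came from 7 pigs, and the reported fit took these libraries as independent. Alternatives were limma-voom (limma 3.58.1), DESeq2 1.42.0, other scaling and filters, a pig block, and leaving out each library. Levels between genes were compared per kilobase of RefSeq exons (annotation release 106), which also gave the positions.

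Members, substrate classes and partner lists were chosen with earlier results of these data known. Values were given in full for the 6 members with the largest fitted fold change in each direction and comparison among those called without overlapping samples, for members called between regions, and for the highest member per kilobase of each class in each kind of sample. SLC30A1 and SLC39A10 were described further after their values were seen where a statement turned on them. Symbols came from the study's supplementary tables, whose fold changes and p-values were not used. Of the 94 members, 2 enter the counts, sums and fits but are not reported by name here.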

Additional observations from a re-analysis of the deposited data

Results flagged for a closer look

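In 144 sets of samples, each of 1 gene given in full in 1 group of 4 or 8 samples, 3 (2.08%) had a sample standing apart from the others by Dixon's criterion, which chance alone gives in about 1 in 20 groups. All 3 were the lowest of their group. SLC1A5 had 89.9 CPM in the cerebellar microglia library of pig 12902, one of the 4 with over 100 CPM of neuron markers, and 132.7 to 174.9 CPM in the other cerebellar libraries. SLC9A3R2 had 0.0 CPM in the cerebellar microglia library of pig 12891 and 0.888 to 7.11 CPM in the others. SLC9A7 had 37.9 CPM in the hippocampal tissue library of pig 12829 and 49.8 to 52.0 CPM in the other 3.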

How the results depend on the processing

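Of 3608 alternative values for 88 pairs of a named gene and a comparison, 3528 kept their side of the threshold, 56 were no longer called and 24 became called. In 0 did the direction reverse with a call in the reported or the alternative fit. A change of direction in a value called in neither fit was counted among the 3528, and values of the F test have no direction. Counts of carriers against macrophages ran from 31 to 41 higher and 18 to 25 lower over 10 other settings, and those against tissue from 21 to 26 higher and 37 to 38 lower. Of all genes, these settings called 6.71% to 14.7% higher and 7.83% to 12.1% lower than in macrophages. Against tissue they called 6.95% to 13.4% of all genes higher and 19.1% to 23.4% lower. For carriers, leaving out 1 library gave 35 to 37 and 21 to 24 against macrophages, and 21 to 23 and 38 to 38 against tissue. Each of the 31 libraries was left out in turn, also where it was not in the comparison. Such fits stay close to the reported one, so part of the agreement in these ranges and values is built in. The same holds for the counts out of 31 fits given above.

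Regional counts moved more. Between the 3 regions, limma-voom called 7 carriers, DESeq2 14 and limma-voom with pig as a replicate block 8, where DESeq2 called 6.53% of all genes against 2.03% in the reported fit, and leaving out 1 library gave 3 to 8. There limma-voom called 1.93% of all genes, and 2.86% with the pig block. Between cerebellum and frontal cortex the count was 3 with the filterByExpr filter, 2 with no filter, 3 with only the groups compared and 8 with the limma-voom pig block, and 3 to 6 without 1 library. Of all genes, these settings in the same order called 0.734%, 0.427%, 1.38% and 3.28%, against 1.87% in the reported fit. Between cerebellum and hippocampus it was 2 with limma-voom, 7 with DESeq2, 0 with the edgeR pig block (18 at an unadjusted p under 0.05), 2 with the limma-voom pig block and 2 without the 4 libraries with over 100 CPM of neuron markers, an alternative chosen after seeing the data, and 0 to 4 without 1 library. Of all genes, DESeq2 called 3.89% there, against 0.602% in the reported fit. The share was 0.387% with limma-voom, 0.567% with its pig block and 0.662% without the 4 libraries. Between frontal cortex and hippocampus it was 6 with DESeq2, 1 with RLE factors, no factors, filterByExpr or only the groups compared, 0 with no filter (28 at an unadjusted p under 0.05) and 0 with the edgeR pig block (10 at an unadjusted p under 0.05), and 1 to 3 without 1 library. Of all genes, DESeq2 called 3.36% there, against 0.318% in the reported fit and 0.0086% to 0.284% in the other settings just named. In the last 2 pairs the edgeR pig block called 0 and 1 of all 11633 tested genes. The cause of these differences between settings was not tested. Changes of call with the replicate block are given beside each gene named against macrophages and tissue, except that SLC16A13 and SLC36A3 were gained as higher than in macrophages and SLC38A9 as higher than in tissue in edgeR, and SLC12A2 and SLC9A3R2 as lower than in macrophages in limma-voom.

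The median log2 fold change of all genes against tissue was -0.08 in the reported fit, -0.30 with RLE factors and 0.14 with no factors. With 3 macrophage libraries, genes near 0 counts there have wide errors, and the limma-voom fits did not call SLC17A7, SLC24A2 and SLC6A17 (adjusted p = 0.0887, 0.101 and 0.0136).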
